A study of Mus musculus with 36 samples.

Results

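The question addressed here is which genes responded differently to a RIG-I agonist after 3 h when the gene for LGP2 was deleted. The quantity was the response of the knockout cells, agonist minus mock, minus the response of the wild-type cells, computed for each gene from the 12 libraries taken at 3 h of the 36 in the study. It was tested for the 11853 of 24127 genes in the table whose mean over all libraries was at least 10 normalized counts, and 4887 of the genes left out had no read at all. Next to that limit, Serpine2 (mean 10) and Fhl2 (10.01) were inside and Hist1h1d (9.99) and Pnma1 (9.97) outside. A normalized count is the number of reads of a gene divided by 1 size factor for the library, and differences are given as log2(normalized count + 1), so a difference of 1 is a doubling in genes with many reads and less than the true change in genes with few.

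All cells were mouse dendritic cells of the C57BL/6 strain, grown from bone marrow in GM-CSF and selected for CD11c, an integrin carried by dendritic cells. WT cells came from wild-type mice, and KO stands here for cells labelled LGP2-/- or Dhx58-/-, Dhx58 being the gene for LGP2. PAMP cells received the poly-U/UC RNA of hepatitis C virus by transfection, 20 ng of it, called PAMP RNA in the labels, and their time-matched controls are described in the labels both as mock treated and as left untreated. Each combination of genotype and treatment had 3 libraries at 3 h, named replicates 1 to 3. The labels call them biological triplicates and do not say whether the 3 came from separate mice, so the tests measure how these libraries vary, which may be technical.

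RIG-I and MDA5 are helicases that bind viral RNA in the cytosol and signal through MAVS on mitochondria to the kinases and transcription factors that switch on type I interferon and inflammatory genes. LGP2 is the third member of the family. It binds RNA but lacks the domains that pass the signal to MAVS, and it has been described both as a brake on RIG-I and as a helper of MDA5. Secreted interferon acts back on the cells through JAK kinases and STAT factors and induces a second layer of genes, LGP2 among them.

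The libraries at 3 h held 4740909 to 14255730 reads, with KO PAMP replicate 1 the shallowest. Pearson correlations of log2 values between libraries of a group were 0.989 to 0.9945. CD11c itself (Itgax) was at 2413 to 3046 normalized counts in all 12 libraries, and the genes of MHC class II were abundant. Of other dendritic cell markers, Zbtb46 was at 165 to 287 and Flt3 at only 0.74 to 15.9. Csf1r, Mertk and Emr1, which macrophages also express, were present too, at 5371 to 6972, 298 to 1175 and 457 to 606. Markers of macrophages summed to 46402 to 54875 over 15 genes, and those of neutrophils to 4544 to 5095 over 12 genes. Markers of T, NK and B cells summed to 5.33 to 27.9 over 12 genes, with Cd3g and Gzma at 0, and those of red cells to 1.13 to 8.86 over 7 genes, with 4 of them at 0. Since the samples are bulk RNA, fewer cells of a type and less RNA per cell cannot be told apart. The summed level of 17 dendritic cell markers was lower in KO cells under both treatments, at 53121 to 55022 against 65218 to 66895 in mock cells and at 56585 to 60774 against 67668 to 68355 in PAMP cells.

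Most genes that responded in WT cells also responded in KO cells, and, with the deposited scaling, most of the differences called were higher in KO cells. PAMP RNA raised 2322 genes in WT cells (19.6% of those tested) and 2817 in KO cells (23.8%), of which 2138 were shared, 92.1% of the WT list and 75.9% of the KO list. It lowered 2603 genes (22% of those tested) and 3183 genes (26.9%), with 2199 shared, 84.5% and 69.1%. Changes of either direction were called for 41.6% of genes in WT and 50.6% in KO cells. The difference between the responses passed the test, limma with Benjamini-Hochberg adjustment and an adjusted p under 0.05 over all genes tested, for 372 genes (3.14%). The KO response was higher in 306 genes (2.58%) and lower in 66 (0.557%). Such genes are called higher or lower below.

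Most differences were modest in size. The median over the 306 higher genes was 0.40 log2 units, a 1.32-fold larger change in KO cells, with a range of 0.20 to 1.94. Over the 66 lower genes the median was −0.50, or 1.42-fold. Differences above 1 were seen in 13 higher and 7 lower genes. Of the 306 higher genes, 276 rose in both genotypes, with median responses over all 306 of 0.88 in WT and 1.32 in KO cells. The 2322 genes that rose in WT cells held all of these 276. For lists of induced genes below, the share over all genes is thus a low standard. Of the 66 lower genes, 47 fell in both, with median responses over the 66 of −0.67 and −1.12. Larger KO responses were thus found among rises and falls.

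**Figure D1:**
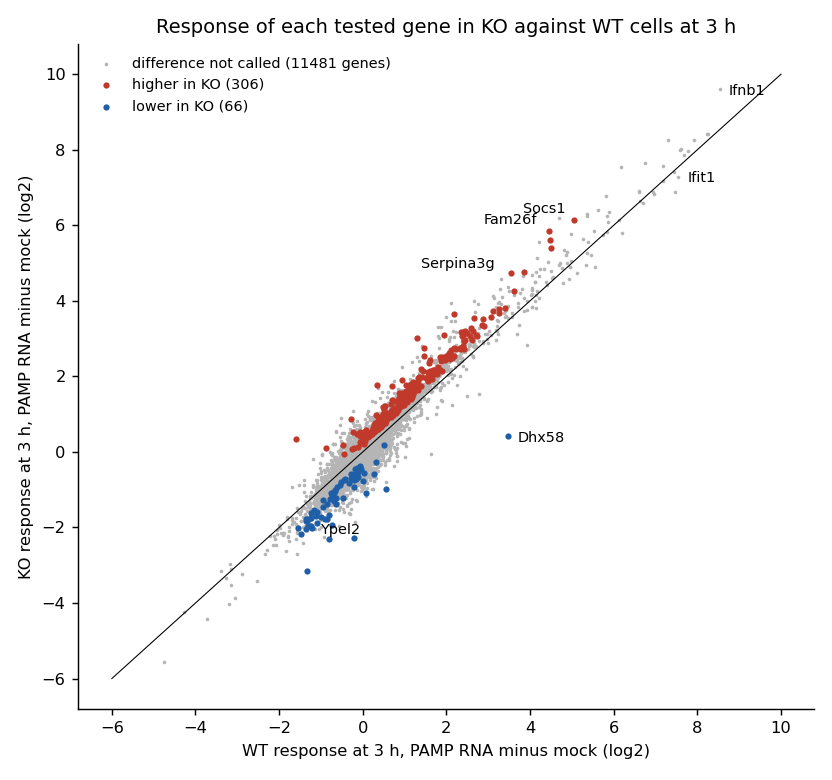
Response of each of the 11853 tested genes in KO cells (vertical axis, log2) against WT cells (horizontal axis, log2) at 3 h. The 306 genes with a higher KO response lie above the line of equal responses, most of them where both genotypes rose, the 66 with a lower one lie below it, and Dhx58 stands apart at 3.48 in WT and 0.41 in KO cells.

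The balance of higher and lower genes depended on how libraries were scaled. Normalized counts summed to 7065948 to 7193906 per library in mock cells of both genotypes, to 8032241 to 8089347 in WT PAMP cells and to 8389084 to 8505253 in KO PAMP cells. With totals made equal, 144 genes were higher and 153 lower, against 155 and 87 after quantile normalization, so 48.5% and 64.0% of calls were higher where the deposited scaling gave 82.3%. Genes raised and lowered by PAMP RNA numbered 1607 and 5366 in WT and 1765 and 6736 in KO cells with equal totals, and 1944 and 3798 against 2320 and 4341 after quantile normalization. In the direct comparison of PAMP cells the deposited scaling gave 1505 genes higher and 1115 lower in KO cells, and this balance turned to 896 and 1832 with equal totals and to 1101 and 1275 after quantile normalization. Counts of list members in PAMP cells below are for the deposited scaling. Equal totals moved the median of all genes by −0.07 for the difference, −0.18 for the WT response and −0.25 for the KO response. Leaving out 1 library took the total from 372 to 237 without WT mock replicate 2 and to 240 without WT PAMP replicate 1. The 306 higher genes became 203 without WT mock replicate 2 and 196 without KO PAMP replicate 3. The 66 lower genes became 42, 34 and 35 without WT mock replicates 1, 2 and 3, 32 and 40 without WT PAMP replicates 1 and 2, and 41 without KO mock replicate 3. Over 23 alternative settings, 120 of the 306 higher and 18 of the 66 lower genes were called in every setting that gave them a value.

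Dhx58, the deleted gene, had the largest difference of all genes called. Its normalized counts were 115, 142 and 138 in WT mock cells and 1457, 1546 and 1428 in WT PAMP cells. In KO cells they were 521, 377 and 455 with mock and 567, 614 and 603 with PAMP RNA. The 4 groups did not overlap: KO mock cells held more Dhx58 reads than WT mock cells, and KO PAMP cells fewer than WT PAMP cells. WT cells thus rose 11.2-fold and KO cells 1.33-fold, a difference of −3.07 (SE 0.19, limma adjusted p = 5.94e-16). The table gives 1 value per gene and does not show which exons the KO reads came from, so the reads do not tell whether a protein can be made. The gene lies on the minus strand of chromosome 11, from 100694884 to 100704271 in the GENCODE annotation of GRCm38, and an antisense gene, Dhx58os, overlaps it. The library kit did not mark strand, so reads of those 2 genes cannot be told apart.

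Of the 12 highest differences, among genes with a mean of at least 50 normalized counts at 3 h, 11 were of genes that rose in both genotypes, by 1.64-fold (Il12b) to 33.2-fold (Socs1) in WT cells, and Nckap5l fell in WT cells. Fam26f, an interferon-inducible membrane protein also named Calhm6, was at 22.6, 21.7 and 23.8 in WT mock and 527, 498 and 531 in WT PAMP cells. In KO cells it was at 12.8, 14.4 and 19.2 with mock and 1095, 893 and 819 with PAMP RNA. The KO libraries were thus lower without the agonist and higher with it, and no groups overlapped. It rose 21.9-fold in WT and 57.3-fold in KO cells, a difference of 1.39 (SE 0.24, limma adjusted p = 1.71e-04). Serpina3g, a serine protease inhibitor of activated leukocytes, went from 425, 476 and 462 to 5420, 5202 and 5264 in WT and from 320, 243 and 332 to 8057, 8027 and 7534 in KO cells. Its difference was 1.19 (SE 0.11, limma adjusted p = 5.73e-11), again with KO libraries lower under mock and higher under PAMP RNA. Socs1, the inhibitor that binds JAK kinases and shuts down interferon signalling, was alike in mock cells, at 81.0, 73.2 and 64.8 in WT and 87.6, 78.2 and 68.5 in KO libraries. With PAMP RNA it was at 2548, 2372 and 2411 in WT and at 5253, 6211 and 5186 in KO libraries. The rise was 33.2-fold and 70.3-fold, a difference of 1.08 (SE 0.20, limma adjusted p = 3.00e-04), and it came from the PAMP libraries. Heatr9 differed by 1.29 at low levels, with a mean of 103 ± 15.6 (SD, n = 3) in KO PAMP and 73.9 ± 8.51 (SD, n = 3) in WT PAMP cells. These PAMP means differ by less than that, so part of the difference lay in the mock libraries.

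**Figure D2:**
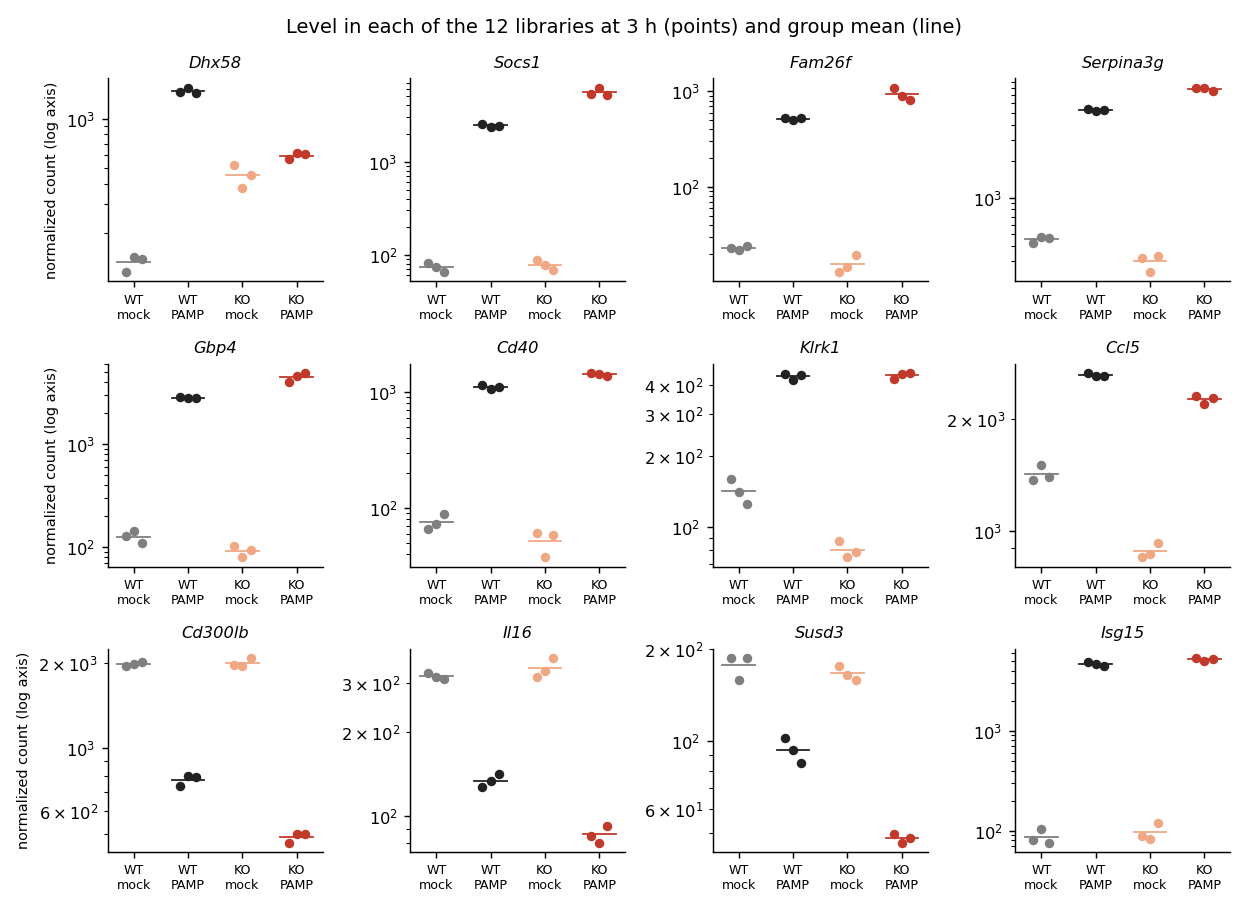
Normalized counts (log axis, own range for each gene) of 12 genes in the 12 libraries at 3 h, with points for libraries and a line for the mean of the 3. Socs1 is alike in mock cells and higher in KO PAMP cells, Klrk1 is lower in KO mock cells and alike in PAMP cells, Cd300lb, Il16 and Susd3 fall further in KO cells, and the response difference of Isg15 was not called.

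The bases just upstream of these genes show how differently their promoters are built. The sequences run from 170 bases before the RefSeq start to the base before it, 5′ to 3′ on the gene's strand, on GRCm38.p6. Capitals mark matches, on either strand, to the interferon-stimulated response element (GAAA, any 2 bases, then GAAA), which complexes of STAT and IRF factors bind, to the gamma-activated site TTCNNNGAA, which STAT dimers bind, and to the kappaB motif of NF-kB. Overlapping matches run together.
Fam26f, chr10:34127973-34128142 minus strand: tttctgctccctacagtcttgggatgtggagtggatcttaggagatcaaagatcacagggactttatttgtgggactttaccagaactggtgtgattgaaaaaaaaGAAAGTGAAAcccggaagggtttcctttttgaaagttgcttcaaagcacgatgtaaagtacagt
Serpina3g, chr12:104235977-104236146 plus strand: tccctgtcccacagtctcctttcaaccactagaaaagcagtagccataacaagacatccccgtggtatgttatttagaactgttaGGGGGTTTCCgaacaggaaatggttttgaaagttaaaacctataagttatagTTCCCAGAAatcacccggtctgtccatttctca
Gbp5, chr3:142496764-142496933 plus strand: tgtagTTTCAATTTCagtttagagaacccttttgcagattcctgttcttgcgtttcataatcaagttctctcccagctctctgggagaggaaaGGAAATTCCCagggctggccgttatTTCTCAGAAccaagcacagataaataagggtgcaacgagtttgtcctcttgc
Socs1, chr16:10785537-10785706 minus strand: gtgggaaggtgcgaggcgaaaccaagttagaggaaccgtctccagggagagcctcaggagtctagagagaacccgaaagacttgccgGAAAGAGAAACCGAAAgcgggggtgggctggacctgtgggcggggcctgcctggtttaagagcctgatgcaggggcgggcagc
Isg15, chr4:156200819-156200988 minus strand: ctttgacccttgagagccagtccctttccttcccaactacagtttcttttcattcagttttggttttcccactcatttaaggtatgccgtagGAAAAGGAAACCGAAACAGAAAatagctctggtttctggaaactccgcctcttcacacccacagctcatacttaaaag
Fam26f has 1 response element at −64 to −55, Socs1 has 2 that overlap at −83 to −68, and Isg15, whose response difference was not called, has 3 that overlap at −78 to −57. Serpina3g has no response element in this window, but a gamma-activated site and a kappaB motif, and Gbp5 has all 3 kinds of match.

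The shares of called genes with these motifs can be set beside those of other induced genes. Promoters were found for 250 of the 306 higher genes, and 20 of them (8.0%) had a response element within 250 bases before to 50 after the start. Of the other genes that rose in WT cells, 146 of 1618 (9.02%) had one, against 3.99% of all 27025 genes with a RefSeq promoter. A gamma-activated site was present in 32 of the 250 (12.8%), in 9.46% of the other WT-induced genes and in 9.55% of all. For the kappaB motif the shares were 8.0%, 8.28% and 5.14%. Of 54 matched lower genes, 2 had a response element and 2 a gamma-activated site. A match is a description of the sequence and not a bound site.

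Type I interferon genes themselves were scarcely expressed without the agonist, which limits the test of their response. Of the 19 interferon genes in the list, 11 were tested, and 9 of those had no read in WT mock cells and 10 none in KO mock cells. Ifnb1, the first interferon made after RNA sensing, was at 879, 900 and 928 in WT PAMP and at 1100, 967 and 1401 in KO PAMP libraries, which did not overlap. Its mock libraries held 6 reads in WT and 3 in KO, and its response difference of 1.07 missed the test (SE 0.48, limma adjusted p = 0.297). Without KO mock replicate 3, which held all 3 KO reads, the difference was 1.63 with a limma adjusted p of 0.034. Ifna2 was at 106, 99.6 and 113 against 210, 166 and 234, and Ifna4 at 195, 191 and 201 against 286, 280 and 358, KO PAMP libraries being the higher in each. Ifna1 went from 17.2, 17.7 and 18.0 in WT to 51.5, 43.1 and 45.3 in KO PAMP libraries, from 0 reads in all mock libraries. In all, 10 of the 11 had the higher PAMP mean in KO cells, and 4 were called higher in the direct comparison of PAMP cells, where 12.7% of all genes were. The 11 were picked by a mean that includes the KO PAMP libraries, and nearly all their 3 h reads lay in PAMP libraries. Counts by direction among them are thus a description and no support for a direction. Some of these PAMP means rest on few reads. Ifna15, counted among the 10, had 1 read in WT PAMP and 1 in KO PAMP libraries, so its direction tells nothing. Ifnab, the exception, had 3 and 2, and Ifna6, Ifna9 and Ifna11 had 9 to 11 reads in WT PAMP libraries. The response difference was called for 0 of the 11 by limma with the main settings, edgeR and DESeq2, and for 5 with a pseudocount of 5. There were 2 calls with no filter on low values and 2 after quantile normalization, which took Ifna9 from 1.84 to 3.12. The fitted size of these differences depends on the pseudocount and the scaling.

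For most genes that interferon induces the difference between the responses was not called at 3 h, though many were higher in KO PAMP cells. All 58 tested members of a list of interferon-stimulated effectors rose in both genotypes, where 19.6% of all genes rose in WT and 23.8% in KO cells. Their median responses were 3.34 in WT and 3.57 in KO cells. The KO response was called higher in 5 of them (8.62%, against 2.58% of all genes) and lower in 0. Of the 2322 genes that rose in WT cells, as all 58 did, 276 were called higher, a larger share than in the list. The median difference was 0.20 (0.06 after quantile normalization, 0.12 with equal totals), with 45 of the 58 positive. In PAMP cells compared directly, 32 of the 58 were higher in KO cells and 0 lower, where 12.7% and 9.41% of all genes were. In mock cells 13 of the 58 were called higher in KO cells and 2 lower, where 3.68% and 4.54% of all genes were. At 6 h the KO response was called higher in 42 of the 58, where 6.67% of all genes were, and lower in 0. Among the 5 were Mx1, a GTPase that blocks influenza virus (0.64, SE 0.11), Herc6 (0.52), Helz2 (0.50) and the membrane protein Ifitm3 (0.30). Mx1 was at 18140, 18400 and 18358 in WT PAMP and at 21163, 23025 and 24878 in KO PAMP libraries, and at 1522, 1461 and 1474 against 1291, 1048 and 1266 with mock, with no overlap in either treatment. Several strongly induced genes of the interferon response were not called. Ifit1, which binds foreign RNA ends, was at 27406, 26158 and 26968 in WT PAMP and 34560, 30434 and 31225 in KO PAMP libraries, but was also called higher in KO mock cells, whose libraries overlapped those of WT cells (0.52, limma adjusted p = 0.0316), and its response differed by −0.26 (SE 0.22). Isg15, the ubiquitin-like modifier, differed by −0.01 (SE 0.25), Irf7 by −0.39 (SE 0.25), Rsad2 by 0.42 (SE 0.19), Cxcl10 by 0.18 (SE 0.20), and none of these 4 passed at 3 h. Rsad2, the antiviral enzyme viperin, was nevertheless higher in KO PAMP cells by 0.70 (limma adjusted p = 1.22e-04) with no overlap, and its KO response was called higher at 1 h (0.98) and 6 h (0.90). Cxcl10, a chemokine that draws activated T cells, was higher in KO PAMP cells by 0.58 (limma adjusted p = 0.00162) with no overlap, and its KO response was called higher at 1 h (1.30) and 6 h (1.17).

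The calls in that list moved with the method. There were 10 by edgeR and by DESeq2, 11 from the 3 h libraries alone, 3 with equal totals and 1 after quantile normalization, which left Mx1 at 0.34 with a limma adjusted p of 0.191. Without WT mock replicate 2 there were 2, and without WT PAMP replicate 3 there were 3. Ifitm3 lost its call without any 1 of 3 libraries (adjusted p 0.0532 to 0.0665) and Herc6 without WT mock replicate 2 (0.0664).

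Of 47 tested genes of the RNA-sensing pathway, 18 were higher in KO PAMP cells, where 12.7% of all genes were. The KO response was called higher in 3 (6.38%, against 2.58% of all genes) and lower in 0. The 3 were Nlrc5, the activator of MHC class I genes (0.55), Rnf135, the ubiquitin ligase Riplet that activates RIG-I (0.51), and Tmem173, the DNA-signal adaptor STING (0.30). Their calls did not survive quantile normalization or equal totals, and the list had 0 calls without WT PAMP replicate 1, 1 call without WT mock replicate 1 or 2, WT PAMP replicate 2, KO mock replicate 2, or KO PAMP replicate 2 or 3, and up to 4 without another library. RIG-I itself, Ddx58, was at 225, 289 and 235 in WT mock and 336, 350 and 313 in KO mock libraries. With PAMP RNA it was at 2941, 2959 and 2978 in WT and 3996, 3947 and 4004 in KO libraries. It was thus higher in KO cells under both treatments, by 0.42 and 0.43, and its response differed by less than its error (difference 0.01, SE 0.13, limma adjusted p = 0.993). MDA5, Ifih1, had a difference of 0.38 (SE 0.12) with a limma adjusted p of 0.0567, which was 0.0193 by edgeR, 0.0104 by DESeq2, and 0.0398 or less without WT mock replicate 3 or KO PAMP replicate 1. Mavs fell in both genotypes, by 0.49 and 0.61, and its difference of −0.12 (SE 0.10) was not called.

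The guanylate-binding proteins, interferon-induced GTPases that attack pathogen vacuoles, headed the gene list with the largest share of calls. Of the 30 tested members of a list of these proteins, the related immunity GTPases and targets of IRF1, 12 (40.0%, against 2.58% of all genes) were called higher and 0 lower. The count was 8 after quantile normalization, 9 with equal totals and 10 to 12 when 1 library was left out. The median difference of the list was 0.34, against 0.01 for all genes. Of 10 tested guanylate-binding proteins, 7 were called. Gbp4 was at 126, 143 and 109 in WT mock, 2820, 2789 and 2794 in WT PAMP, 101, 79.1 and 92.9 in KO mock and 3979, 4509 and 4893 in KO PAMP libraries. It rose 22.2-fold in WT and 48.5-fold in KO cells (difference 1.13, SE 0.15, limma adjusted p = 2.29e-06). Gbp5, which acts in inflammasome assembly, went from 216, 224 and 221 to 5080, 4833 and 5038 in WT, and from 179, 155 and 195 to 7012, 7450 and 7972 in KO libraries (difference 0.91, SE 0.12). Neither gene's groups overlapped in either treatment. Gbp9 (0.88), Gbp2 (0.66), Gbp8 (0.60), Gbp3 (0.51) and Gbp7 (0.43) followed, while Gbp11 (0.80, SE 0.56), Gbp6 (0.56, SE 0.20) and Gbp2b (0.28, SE 0.21) did not pass. Gbp4, Gbp8 and Gbp9 overlap on chromosome 5, and the labels and notes do not say how reads shared between them were counted.

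Transcription factors that drive such genes were called as well. Irf1, a transcription factor of the interferon response, was at 4129, 4110 and 4231 in WT PAMP and at 5894, 5964 and 6033 in KO PAMP libraries, with mock libraries at 628, 669 and 615 against 678, 685 and 712. Its difference was 0.40 (SE 0.09, limma adjusted p = 0.00283), and 0.30 with an adjusted p of 0.0666 after quantile normalization. Irf8, which shapes dendritic cell identity, rose from 1781, 1754 and 1793 to 2260, 2178 and 2152 in WT, and from 1436, 1561 and 1540 to 2580, 2548 and 2571 in KO libraries (0.46, SE 0.07, limma adjusted p = 6.00e-05). Over the 10 tested interferon regulatory factors the median difference was −0.07 although 3 (30.0%, against 2.58% of all genes) were called higher, Irf1, Irf2 and Irf8.

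Genes of MHC class I loading followed with smaller differences. Of 25 tested, 6 (24.0%, against 2.58% of all genes) were called higher and 0 lower, with a median of 0.18. The 6 were Nlrc5, the peptide transporter subunits Tap1 (0.36) and Tap2 (0.29), tapasin (Tapbp, 0.35), the immunoproteasome subunit Psmb8 (0.32) and H2-T23 (0.28). The median stayed positive at 0.15 after quantile normalization and 0.10 with equal totals, but the calls fell to 0 and 1. Leaving out 1 library gave 2 to 5 calls, the fewest without WT mock replicate 2, 3 without WT PAMP replicate 2 or 3 and 3 without KO mock replicate 1 or 3. Of 16 MHC class II genes 1 was called higher (6.25%, against 2.58% of all genes), a count near that share. It was the ubiquitin ligase gene March1 (0.31). In KO mock cells 9 of the 16 were lower, where 4.54% of all genes were.

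Some cytokine, chemokine and activation genes with a higher KO response started lower in KO cells, and others ended higher. The lymphocyte-activating receptor gene Klrk1 (NKG2D) was at 159, 140 and 126 in WT mock and 87.6, 74.6 and 78.9 in KO mock libraries, but at 445, 419 and 441 against 423, 443 and 450 with PAMP RNA. The mock libraries separated and the PAMP libraries overlapped, and the response difference was 0.82 (SE 0.14, limma adjusted p = 9.66e-05). Il12b, the p40 subunit of IL-12 and IL-23, went from 60.9, 69.6 and 84.8 to 113, 121 and 117 in WT and from 46.8, 28.7 and 38.3 to 139, 113 and 130 in KO libraries (1.03, SE 0.26, limma adjusted p = 0.0156). Its call was lost without WT mock replicate 3 (0.91, adjusted p = 0.0653) or KO mock replicate 2 (0.85, adjusted p = 0.0735). The chemokine gene Ccl5 was lower in KO cells under both treatments, at 848, 863 and 928 against 1372, 1502 and 1398 with mock and 2305, 2189 and 2274 against 2656, 2603 and 2599 with PAMP RNA. The gap was −0.69 in mock and −0.22 in PAMP cells, so its response was the larger in KO cells by 0.48 (SE 0.08, limma adjusted p = 4.55e-05) while its level stayed below that of WT cells.

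Of 23 tested inflammatory cytokine genes, 4 (17.4%, against 2.58% of all genes) were called higher and 0 lower. In KO mock cells 3 were lower and in KO PAMP cells 6 were higher, where 4.54% and 12.7% of all genes were. The interleukin-1 receptor antagonist Il1rn (0.45), the macrophage growth factor Csf1 (0.39) and Il12b were called lower in KO mock cells and not called in PAMP cells, and Tnfsf15 (0.55) was called higher in PAMP cells alone. The count was 2 without WT mock replicate 3 and 2 without KO mock replicate 2. Tnf reached 2315, 2349 and 2521 in WT PAMP and 3239, 3790 and 4026 in KO PAMP libraries, from 432, 468 and 470 and 565, 476 and 606. Its difference of 0.36 (SE 0.11) had a limma adjusted p of 0.0593, and of 0.0364 by edgeR and 0.029 by DESeq2. Without KO mock replicate 3 or KO PAMP replicate 1 the adjusted p was 0.0233 or less. Il6 (0.08, SE 0.42) and Il1b (−0.16, SE 0.21) were not called.

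Of 19 chemokine genes, Ccl2, Ccl3 and Ccl5 were called higher (15.8%, against 2.58% of all genes) and 0 lower. In KO mock cells 8 were lower and in KO PAMP cells 7, where 4.54% and 9.41% of all genes were. The median difference of 0.06 turned to −0.01 after quantile normalization and −0.02 with equal totals. Ccl3, which draws monocytes and T cells, was at 1213, 1043 and 1232 in WT PAMP and 1436, 1540 and 1646 in KO PAMP libraries (difference 0.63, SE 0.13). Ccl2 (0.67, SE 0.18) lost its call without any 1 of 5 libraries, with adjusted p-values of 0.0853 to 0.183.

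Immediate-early genes, which encode factors made within minutes of a stimulus, gave 10 calls of 38 (26.3%, against 2.58% of all genes), all higher. The count was 8 to 12 when 1 library was left out. Egr1 was at 776, 759 and 829 in WT PAMP and at 1038, 1164 and 1336 in KO PAMP libraries, with mock libraries that overlapped (difference 0.77, SE 0.13, limma adjusted p = 1.07e-04). Egr3 (0.71), Phlda1 (0.53) and Klf6 (0.26) were likewise called higher in PAMP cells and not called in mock cells. Ppp1r15a, the phosphatase subunit GADD34 that restores translation after stress (0.67, SE 0.11), and Zfp36, which degrades cytokine mRNA (0.38), were lower in mock and higher in PAMP cells. Rgs1 (0.55), Csrnp1 (0.50) and Nr4a2 (1.43) were called lower in KO mock cells and not called in PAMP cells, and Nr4a3 (0.39) was lower in both. The difference of Nr4a2, the largest of the list, passed narrowly (limma adjusted p = 0.046). Of the whole list, 12 of 38 genes were lower in KO mock cells, where 4.54% of all genes were. In KO PAMP cells 13 were higher and 6 lower, where 12.7% and 9.41% of all genes were.

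Of 28 tested genes of dendritic cell maturation, 22 were called lower in KO mock cells and 15 in KO PAMP cells, where 4.54% and 9.41% of all genes were. The response was called higher in 5 (17.9%, against 2.58% of all genes) and lower in 0. Those 5 were Cd40, Il15ra, Cd274, Tnfsf4 and Icam1. Cd40, the receptor for help from T cells, was at 66.2, 73.2 and 89.6 in WT mock and 61.2, 37.7 and 59.0 in KO mock libraries, and at 1139, 1051 and 1113 against 1462, 1423 and 1377 with PAMP RNA. The groups changed order between treatments without overlap, and the difference was 0.92 (SE 0.20, limma adjusted p = 0.00481). Il15ra, which presents interleukin-15, differed by 0.82 (SE 0.14) and Cd274, the inhibitory ligand PD-L1, by 0.49 (SE 0.08). The median difference of the list was 0.06, 0.02 after quantile normalization and −0.02 with equal totals. The lower dendritic cell markers in KO cells given above moved with these genes, and their part in the result was not tested.

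Over all 306 higher genes, the PAMP libraries carried the difference more often than the mock libraries. In 219 genes KO exceeded WT in PAMP cells with no call in mock cells, in 43 KO was lower in mock cells with no call in PAMP cells, and in 22 both held. For 9 neither was called, 9 were higher in KO cells under both treatments and 4 lower under both. Of the 66 lower genes, 49 were lower in KO PAMP cells with no call in mock cells, 8 were higher in KO mock cells alone, 2 had both, 3 were lower under both and 4 had no call in either. These counts use the same libraries as the difference itself and describe where it lies. Of all genes, 8.22% differed in mock cells, 4.54% being lower and 3.68% higher in KO, and 12.7% higher and 9.41% lower in KO PAMP cells.

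**Figure D3:**
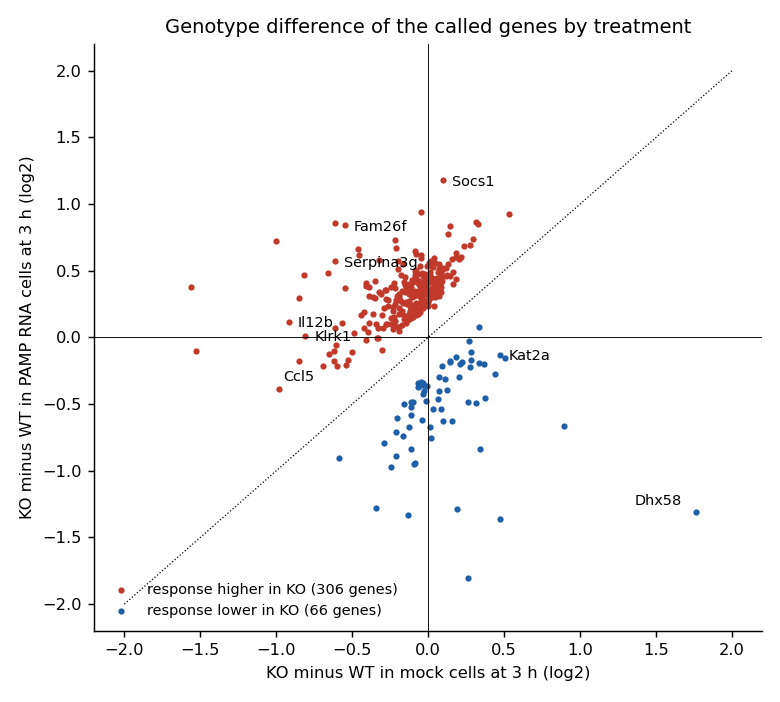
Difference between KO and WT cells with mock treatment (horizontal axis, log2) and with PAMP RNA (vertical axis, log2) for the 306 genes with a higher and the 66 with a lower KO response. Most higher genes lie near 0 on the horizontal and above 0 on the vertical axis, such as Socs1, while Klrk1 and Il12b lie left of 0 at a height near 0 and Dhx58 lies alone at 1.76 and −1.31.

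Feedback inhibitors were called with Socs1 at their head. Of 24 tested, 5 (20.8%, against 2.58% of all genes) were higher and 0 lower, namely Socs1, Cish (0.55), Cd274, Il1rn and Zfp36, with a list median of 0.15. After quantile normalization 5 were higher and 1 lower, and with equal totals 5 were higher and 0 lower. Among 16 receptors, Janus kinases and STATs, 4 (25.0%, against 2.58% of all genes) were called higher and 0 lower, among them Jak2 (0.39, SE 0.06), Stat3 (0.29) and Tyk2 (0.25). The count was 1 under each scaling, and 2 without WT mock replicate 2, WT PAMP replicate 1 or 3, KO mock replicate 3, or KO PAMP replicate 2 or 3. Jak2, the call that remained in all settings, was lower in KO mock libraries (1714, 1702 and 1793 against 2396, 2430 and 2563) and closer with PAMP RNA (2951, 3080 and 3325 against 3379, 3365 and 3362). Of 34 NF-kB genes, Marcksl1 (0.44), Rel (0.39), Cflar (0.34), Icam1 (0.32) and Nfkbie (0.30) were called higher (14.7%, against 2.58% of all genes) and 0 lower. After quantile normalization 2 of these NF-kB genes were higher and 1 lower, and with equal totals 3 were higher and 0 lower. Only 3 calls were left without KO PAMP replicate 3. The inhibitor Nfkbia differed by 0.09 (SE 0.08).

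Metabolic genes of activated myeloid cells and a few regulators of growth and death were also called. Irg1, whose enzyme makes itaconate, was at 19910, 19874 and 20474 in WT PAMP and at 28673, 29322 and 30629 in KO PAMP libraries, with mock libraries that overlapped (0.51, SE 0.09). After quantile normalization it was 0.18 with an adjusted p of 0.466. Kynu (0.54), of tryptophan breakdown, and Slc7a2 (0.45), an arginine carrier, made 3 of 13 genes (23.1%, against 2.58% of all genes) with 0 lower. Ccnd2, cyclin D2, rose from 965, 1069 and 1015 to 5286, 5220 and 5272 in WT and from 763, 749 and 814 to 6401, 6467 and 6667 in KO libraries (0.70, SE 0.07, limma adjusted p = 5.88e-09). With cyclin D1 (Ccnd1, 0.47) it was 1 of the 2 called higher of 34 cell cycle genes (5.88%, against 2.58% of all genes), a count near that share. The median difference of that list was −0.04, with 13 of the 34 positive. Ccnd1 lost its call without WT mock replicate 2 (limma adjusted p = 0.0712) or WT PAMP replicate 1 (0.0517). Of 30 cell death genes, 3 (10.0%, against 2.58% of all genes) were called higher and 0 lower, among them Daxx (0.42) and Cflar. The count was 1 after quantile normalization and 1 with equal totals, where Daxx and Cflar lost their calls. The hexokinase gene Hk3 (0.44, SE 0.08) was the only call among 18 glycolytic genes (5.56%, against 2.58% of all genes), a count near that share. Vcan, a matrix proteoglycan and no member of a list, was also called higher (0.79, SE 0.08, limma adjusted p = 2.71e-09). It rose from 1031, 1006 and 972 to 2559, 2688 and 2700 in WT and from 783, 742 and 744 to 3198, 3427 and 3752 in KO libraries.

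Several other lists had no called difference between the responses. Hypoxia-inducible genes fell in WT cells (31 of 36, median −0.88) and in KO cells (29 of 36, median −1.04), where 22% and 26.9% of all genes fell. The difference between their responses was called for 0 by limma (3 with equal totals and 3 from the 3 h libraries alone). Egln3, the oxygen-sensing hydroxylase, was at 977, 1544 and 1643 in WT mock and 1545, 1427 and 1554 in KO mock libraries and at 47.1, 55.7 and 44.5 against 28.4, 29.5 and 34.5 with PAMP RNA (−0.81, SE 0.27, limma adjusted p = 0.0895). No call was made among 24 cholesterol synthesis genes, 20 NRF2 targets, 15 heat shock genes, 45 ribosomal proteins and 38 subunits of oxidative phosphorylation, with list medians of −0.06 to 0.06. Over all genes 3.14% were called, so 0 calls in lists of these sizes lies near that share. Ribosomal proteins and oxidative phosphorylation responded little, with 5 of 45 and 4 of 38 called in WT cells, where 41.6% of all genes were. In KO PAMP cells 25 of the 45 ribosomal genes were lower, where 9.41% of all genes were. Of the cholesterol genes, 16 were higher in KO mock and 17 in KO PAMP cells, where 3.68% and 12.7% of all genes were. Their median response difference was 0.03. Stress lists were mixed. Of 27 genes of the integrated stress response 2 were higher and 1 lower, and of 18 endoplasmic reticulum genes 1 each, with Herpud1, which aids disposal of misfolded proteins, lower at −0.31 (SE 0.08). The shares over all genes were 2.58% higher and 0.557% lower. The 3 calls of the first list fell to 1 without WT PAMP replicate 1 or KO mock replicate 3, and the 2 of the second to 0.

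The 66 genes with a lower KO response were mostly genes that PAMP RNA represses. Cd300lb, an activating receptor of myeloid cells, was at 1959, 1993 and 2017 in WT mock and 1978, 1958 and 2086 in KO mock libraries, and at 738, 797 and 790 against 466, 498 and 497 with PAMP RNA. Mock libraries overlapped and PAMP libraries separated, and the falls of 2.57-fold and 4.12-fold differed by −0.68 (SE 0.08, limma adjusted p = 2.88e-08). Il16, a chemoattractant for CD4 cells, fell from 325, 315 and 309 to 127, 133 and 141 in WT and from 316, 332 and 368 to 85.3, 80.6 and 92.5 in KO libraries (−0.72, SE 0.11, limma adjusted p = 1.73e-05). Susd3 fell from 186, 158 and 187 to 102, 93.6 and 84.8 in WT and from 176, 164 and 158 to 49.8, 46.5 and 48.2 in KO libraries (−0.85, SE 0.16, limma adjusted p = 5.61e-04). Ypel2 (−0.81, SE 0.18) and Mtss1 (−0.46, SE 0.09) were also called in every setting.

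Further down, the lower calls were less firm. Sox4, a transcription factor of progenitors, differed by −0.73 (SE 0.17) and by −0.61 with an adjusted p of 0.0528 without WT mock replicate 3. The prostaglandin E2 receptor gene Ptger2 (−0.85), Tmem194b (−0.78), Polr3g, an RNA polymerase III subunit (−0.77), Ap4m1 (−0.75) and Galnt9 (−0.73) had adjusted p-values of 0.0261 to 0.0494. Leaving out 1 library ended the call of Ptger2 for any of the 12, of Galnt9 for 11, of Tmem194b for 10, and of Polr3g and Ap4m1 for 7 each, with adjusted p-values up to 0.138, 0.147, 0.214, 0.0861 and 0.127.

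A minority of genes moved in 1 genotype alone by the test. Among the higher genes, 24 rose in KO cells with no call in WT cells. Enc1 was at 200, 204 and 207 in WT mock, 224, 175 and 191 in WT PAMP, 190, 207 and 192 in KO mock and 299, 270 and 284 in KO PAMP libraries (0.59, SE 0.14, limma adjusted p = 0.00837). Slc7a2 was of this kind too. For 6 genes the WT fall was called and no KO change, such as Nckap5l, a microtubule-bundling protein, at 59.2, 50.5 and 62.9 and then 29.9, 27.8 and 33.9 in WT against 45.9, 62.9 and 59.0 and then 65.7, 61.3 and 52.2 in KO libraries (0.99, SE 0.22, limma adjusted p = 0.00564). Among the lower genes, 15 fell in KO cells alone, among them Srfbp1 (−0.83, SE 0.19), and 2 rose in WT and fell in KO cells. One of those 2 was Kat2a, a histone acetyltransferase, which went from 145, 146 and 153 to 175, 197 and 187 in WT and from 202, 209 and 206 to 147, 204 and 161 in KO libraries (−0.60, SE 0.15, limma adjusted p = 0.0113). Dhx58 and Tfrc, the transferrin receptor (−0.34, SE 0.09), were the 2 lower genes that rose in both. The call for Tfrc was lost without any 1 of 5 libraries, WT mock replicates 2 and 3, WT PAMP replicates 1 and 3 and KO mock replicate 3, with adjusted p-values of 0.0558 to 0.068.

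The libraries at 1 h and 6 h are separate samples and show how the 3 h differences sit in time. At 1 h, 14 genes were called higher (0.118% of those tested) and 0 lower, where 550 genes had an unadjusted p under 0.05. At 6 h, 791 were higher (6.67%) and 452 lower (3.81%), a balance that turned to 380 and 1249 with equal totals and to 381 and 516 after quantile normalization. Of the 306 genes higher at 3 h, 301 (98.4%) also had a positive difference at 6 h, as did 53.2% of all genes, and 202 (66.0%) were called higher there, which is 25.5% of the 6 h list. At 1 h, 219 (71.6%) were positive, as were 52.0% of all, and 5 were called. Of the 66 lower genes, 59 (89.4%) were negative at 6 h, as were 46.8% of all, and 24 were called lower, 5.31% of that list. At 1 h 26 of the 66 (39.4%) were negative, as were 48.0% of all genes, and 0 were called.

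A direct test of the 3 h against the 1 h difference called 34 genes (0.287%), 27 with a higher value at 3 h (0.228%) and 7 with a lower one (0.0591%). With equal totals these were 14 and 13, and after quantile normalization 14 and 10. Among them were Serpina3g, by 1.24 (SE 0.15), and Gbp4, by 1.05, whose differences at 1 h were −0.05 and 0.08, followed by Klrk1 (0.98), Vcan (0.80) and Lrch1 (0.77), a regulator of cell migration. In the other direction were Dhx58 (−3.14), Susd3 (−1.03), Nfkbiz (−0.96) and Mtss1 (−0.59). Nfkbiz, a nuclear inhibitor of NF-kB, had a higher KO response at 1 h (0.82, limma adjusted p = 0.0011) and no called difference at 3 h (−0.14, SE 0.14). Egr1 and Ppp1r15a were already higher at 1 h, by 0.99 and 0.87, as was Zfp36 by 0.42, and their change from 1 to 3 h was not called.

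Between 3 h and 6 h 7 genes (0.0591%) were called, 6 with a higher value at 3 h (0.0506%) and 1 with a lower one (0.00844%). Zfp395 (1.78), Mical3 (0.90), Scd2 (0.86), Sqle (0.64) and Abce1 (0.56) had no called difference at 3 h and a lower KO response at 6 h, as Zfp395 with −2.16 and Sqle, an enzyme of cholesterol synthesis, with −0.76. Ddx28, a mitochondrial RNA helicase, was the reverse, at −0.53 (SE 0.11) at 3 h and 0.28 at 6 h, a change of −0.80. The count of 7 was 4 without WT mock replicate 2, WT PAMP replicate 2, KO mock replicate 1 or 3, or KO PAMP replicate 3, 11 without WT PAMP replicate 3 and 30 without KO mock replicate 2.

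**Figure D4:**
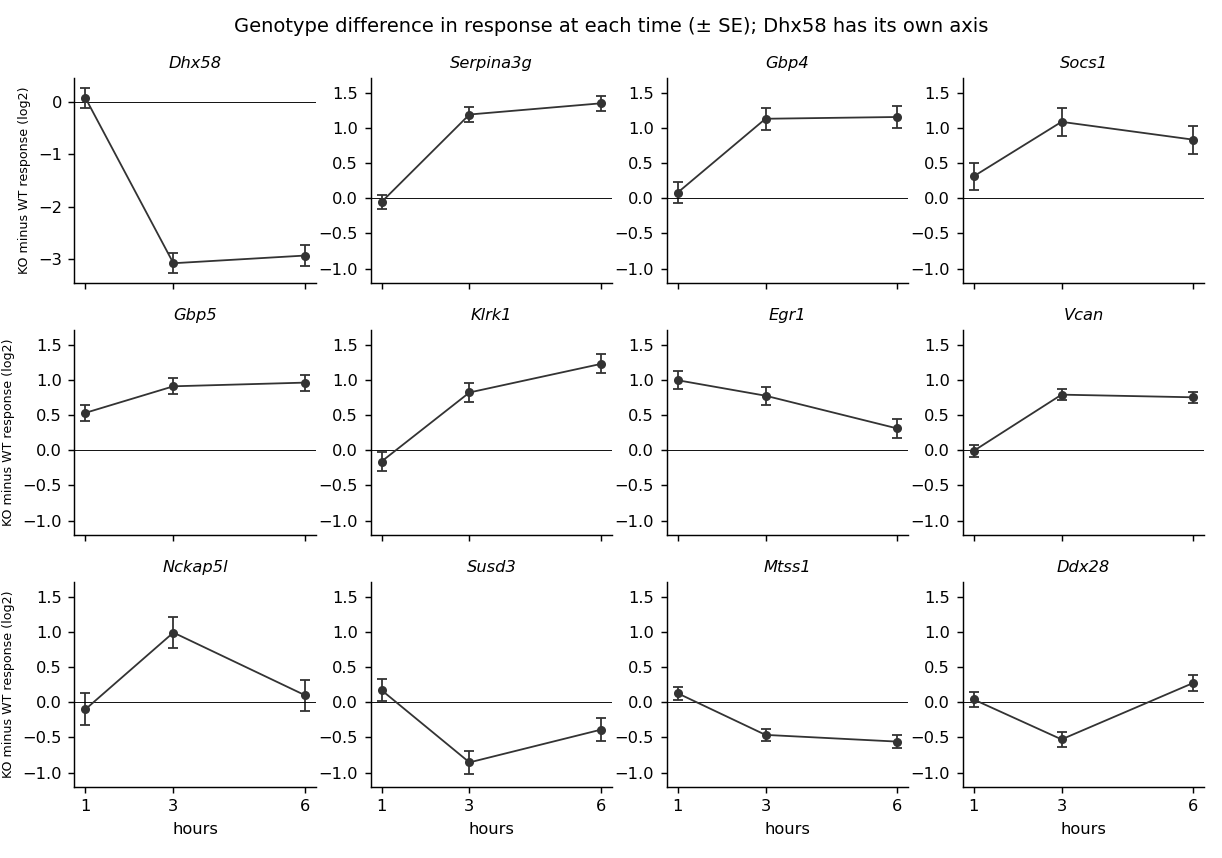
KO response minus WT response (log2, ± SE) at 1, 3 and 6 h for 12 genes, with an axis of its own for Dhx58. Serpina3g, Gbp4, Klrk1 and Vcan lie near 0 at 1 h and between 0.75 and 1.35 at 3 and 6 h, Egr1 is highest at 1 h with 0.99, and Nckap5l and Ddx28 depart from 0 mainly at 3 h.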

How the data were processed

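Bulk RNA-seq was made from CD11c-selected dendritic cells, 3 libraries for each of 12 groups. Per the labels' protocols, RNA was extracted with RNeasy columns, and libraries were made with SMARTer and Nextera XT kits and sequenced as single reads. The submitters' processing notes name TopHat, Cufflinks, DESeq2 and GRCm38, with no roles or versions. The deposited values are signal on the scale of counts divided by 1 size factor per library, as the authors normalized them. Every value gave a whole number of reads within 0.01 read, so reads were recovered for the count tests.

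Genes with a mean of at least 10 were kept. limma 3.58.1 (R 4.3.3) was fitted to log2(normalized count + 1) with 12 group means over all 36 libraries, leaving 24 residual degrees of freedom, with a mean-variance trend and Benjamini-Hochberg adjustment over 11853 genes. edgeR 4.0.16 and DESeq2 1.42.0 on recovered reads, other pseudocounts, filters and scalings, and fits without each library were alternatives. The fit was tested on simulated data. The same replicate number did not pair libraries: over 18 pairs the median correlation of deviations was 0.0034, from −0.080 to 0.067.

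The genes named were Dhx58 and a panel of RNA-sensing genes, the 12 highest and 12 lowest called differences with a mean of at least 50 normalized counts at 3 h, up to 4 members of each list by the largest moderated t, up to 4 genes per response pattern, and the 5 highest and 5 lowest called in each comparison with 1 h and 6 h. Further called list members and tested guanylate-binding proteins are named after their values were seen. The members and lists were chosen with earlier results of these data known. Promoters are RefSeq's on GRCm38.p6. Intervals of reads cover counting error only, and a count of 0 allows up to 3 reads. Some results of single genes are not reported here.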

Additional observations from a re-analysis of the deposited data

Results flagged for a closer look

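Each result here is a difference between genotypes, or between times, that passed the limma test of the difference itself with Benjamini-Hochberg adjustment. Between genotypes, 372 genes differed in their response at 3 h, and Dhx58 differed by −3.07.

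Between 3 h and 1 h the genotype difference changed for 34 genes. It was higher at 3 h by 1.24 for Serpina3g, 1.05 for Gbp4, 0.98 for Klrk1, 0.80 for Vcan and 0.77 for Lrch1. It changed by −1.03 for Susd3, −0.96 for Nfkbiz and −0.59 for Mtss1.

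Between 3 h and 6 h it changed for 7 genes. Zfp395 differed by 1.78, Mical3 by 0.90, Scd2 by 0.86, Sqle by 0.64 and Abce1 by 0.56, each with a KO response lower than the WT response at 6 h and no called difference at 3 h. Ddx28, whose difference was called at 3 h, changed by −0.80. Groups of 3 libraries are too small for a test of single outlying libraries.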

How the results depend on the processing

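Of the 372 called differences at 3 h, the number was 242 after quantile normalization, 155 of them higher. With equal totals 144 were higher and 153 lower, and with no filter on low values 43 were lower. Leaving out 1 library gave 237 to 417 calls, 196 to 350 of them higher and 32 to 67 lower. The 34 genes whose difference changed from 1 h became 12 with no filter and 53 by DESeq2. The 7 that changed from 6 h became 2 with no filter, 4 by edgeR, 16 by DESeq2 and 4 to 30 when 1 library was left out. The cause of these changes was not tested.

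A replicate block moved the 372 calls to 359, 295 higher and 64 lower, and the 7 to 12. The numbers did not pair the libraries: 6 of 12 lay closest to their own number. Over single genes and lists, 347 values lost their call under an alternative and 46 gained one, and no called value changed sign. With 3 libraries a group and 4740909 reads in the shallowest, low genes such as the interferons in mock cells limit the test.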

Other observations

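The neighbours of the deleted gene on chromosome 11 were looked at after their values were seen. Kat2a lies 475 bases from Dhx58 on the same strand, and its response differed by −0.60 at 3 h and by −1.24 at 6 h. The other 2 tested neighbours, Zfp385c at 2429 bases (−0.08, SE 0.09) and Rab5c at 10738 bases (0.02, SE 0.08), were not called at 3 h.

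Among markers of macrophages, Mertk, a receptor for the uptake of dead cells, had a higher KO response by 0.64 and Fcgr1, the high-affinity IgG receptor, by 0.35, while that of Ccr2, a chemokine receptor of monocytes, was lower by −0.26. The other 12 tested genes of that list were not called. These 3 are named after their values were seen. The count of 3 was 1 without WT PAMP replicate 1 and 1 with no filter on low values, 4 without KO PAMP replicate 1 and 2 without any 1 of the other 10 libraries.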
